A study of Mus musculus with 4 samples.

Results

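The transcription factor p53 answers ribosomal stress, DNA damage and other insults by raising the transcription of genes for growth arrest, DNA repair and cell death, and among its targets are the inhibitors that shut it off again. Described here are 36 genes, Trp53 and targets of p53 in stress and repair, listed by name and grouped by role, of which 33 were measured among 18194 genes. A gene was counted as measured when a probe set of the array annotation carried its symbol alone, and where several did, the brightest of them on average over the 4 arrays stood for the gene. Trp53 itself, the ferredoxin reductase gene Fdxr and the stress hormone gene Gdf15 had no such probe set in the table used and were not analysed here. The 33 measured genes had 66 probe sets, of which 13 genes had 1 and 20 had several.

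Liver RNA was measured on 4 Affymetrix mouse expression arrays, 1 per genotype. The genotypes were ΔS6:c-Myc (loxP-flanked Rps6 deleted by Albumin-Cre, plus the Alb-c-Myc transgene), Alb-c-Myc (the transgene with no deletion of Rps6), ΔS6 (Rps6 lox/lox:Alb-Cre) and WT, which lacked Cre. Each array received equal amounts of RNA from the livers of 3 mice, labelled as non-fasted males of 5 weeks of age and taken from a colony of mixed hybrid strain. Albumin-Cre acts in hepatoblasts from before birth and its deletion is incomplete, so that the livers keep cells with Rps6, and the albumin promoter of the transgene drives c-Myc in hepatocytes. Whether Alb-c-Myc mice carried loxP-flanked Rps6 alleles is not given by the labels. Values are RMA expression values on the log2 scale, on which a difference of 1 is 2-fold. With 1 array per genotype no difference has a replicate check and no p-value was computed. The spread between probe sets of 1 gene was used as a measuring tolerance, not a replicate error, and its SD was 0.24 for the ratio of ΔS6:c-Myc relative to Alb-c-Myc and 0.27 for ΔS6 relative to WT. In whole liver, fewer cells of a type and less RNA per cell cannot be told apart.

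The labels were checked before the members were compared. Each of the 9 measured hepatocyte markers differed by less than 2-fold between the arrays compared, in both comparisons, with a median log2 ratio of -0.10 in each. For the deleted gene, the 9 probe sets that Rps6 shares with the pseudogene Rps6-ps4 all had negative log2 ratios, with medians of -1.76 for ΔS6:c-Myc relative to Alb-c-Myc and -0.29 for ΔS6 relative to WT. The 2 that carry the symbol Rps6 alone disagreed, with log2 ratios of -2.48 and 2.59 for the first comparison and of -0.79 and 1.47 for the second. The WT array stood apart. Xist, which female cells transcribe to silence an X chromosome, was at 5.88 to 6.33 on the other arrays and at 11.84 on the WT array, although the WT label gives males. The Y-linked Eif2s3y was present on all arrays, at 8.91 to 9.11 on the others and 8.67 in WT. Of 8 measured exocrine pancreas genes, 8 were lower by 2-fold or more in ΔS6 compared with WT, with summed intensities of 856 in ΔS6:c-Myc, 1152 in Alb-c-Myc, 748 in ΔS6 and 5519 in WT. For the members past 2-fold in ΔS6 relative to WT, the ratio of ΔS6 to Alb-c-Myc is therefore given as well, in a paragraph after the members.

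Sequence around the start sites was examined first, because p53 binds a pair of adjacent decamers of a defined palindromic pattern, and the windows below show where 1 such decamer lies near the start of 6 members. RefSeq promoters of GRCm38.p6, from 250 bases before to 50 bases after the annotated start, were found for 26 of the 33 measured members. The p53 decamer half-site matched in the promoters of 10 of these 26 members (38.5%), against 9.55% of 27025 genes. These were Mdm2, Ccng1, Ppm1d, Polk, Aen, Ei24, Rps27l, Gadd45a, Ckap2 and Sesn1. The members were listed as p53 targets, so their share of half-sites is not independent of that choice. Shown 5′ to 3′ on the strand of the gene, with the decamer in capitals, are the bases upstream of the start in 6 of them.

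Mdm2, chr10:117710885-117710994, minus strand: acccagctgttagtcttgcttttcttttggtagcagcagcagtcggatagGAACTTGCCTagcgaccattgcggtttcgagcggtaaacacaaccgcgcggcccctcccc
Ccng1, chr11:40755412-40755521, minus strand: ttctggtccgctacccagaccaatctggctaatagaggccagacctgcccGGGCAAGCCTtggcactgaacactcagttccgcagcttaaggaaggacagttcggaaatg
Ppm1d, chr11:85311072-85311181, plus strand: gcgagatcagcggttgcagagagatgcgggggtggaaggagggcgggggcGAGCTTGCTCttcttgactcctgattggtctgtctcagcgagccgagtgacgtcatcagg
Ei24, chr9:36797335-36797394, minus strand: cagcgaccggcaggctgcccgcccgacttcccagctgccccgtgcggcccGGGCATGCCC
Gadd45a, chr6:67037408-67037497, minus strand: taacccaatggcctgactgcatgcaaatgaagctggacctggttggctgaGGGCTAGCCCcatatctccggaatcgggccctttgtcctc
Ckap2, chr8:22185963-22186069, minus strand: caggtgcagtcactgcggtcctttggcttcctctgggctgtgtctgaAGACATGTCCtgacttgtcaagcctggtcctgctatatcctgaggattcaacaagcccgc

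Counted from the annotated start, with negative numbers upstream, the decamer began at -186 in Mdm2, -185 in Ccng1, -132 in Ppm1d, -10 in Ei24, -40 in Gadd45a and -203 in Ckap2. The TATA box TATAAA matched in 4 of the 26 members, against 15.7% of genes. The cell cycle element TTTGAA matched in 4, against 20.2%. The E-box CACGTG, the element that Myc binds, matched in 5, against 8.09%. Both strands were searched, and none of these patterns contains another. A match is a description of letters and not of binding, and p53 sites of Mdm2 and Gadd45a that are known from other work lie in introns, outside these windows. Among the 12 of the 26 that were at least 2-fold higher in both comparisons below, 5 had a decamer, and among the other 14 members 5 had one.

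The question put to the members was whether the effect of Rps6 deletion on them was the same with and without the c-Myc transgene. The loss of Rps6 RNA was unequal in these settings. The shared Rps6 probe sets had medians of -1.76 with the transgene and -0.29 without it. By Northern blot the authors report a larger fall of Rps6 mRNA in ΔS6 livers than these probe sets show. They report RPS6 protein as unchanged in ΔS6:c-Myc livers. The authors also report more of the recombined Rps6 allele, and less Rps6 mRNA, in ΔS6:c-Myc than in ΔS6 livers. Differences between the settings therefore cannot be told apart from differences in the extent of deletion. In what follows, a pair of log2 ratios gives ΔS6:c-Myc relative to Alb-c-Myc (with the transgene) and then ΔS6 relative to WT (without it). Nearly the same members were higher in Rps6-deficient liver in both settings, with the spindle protein gene Psrc1 at the top of both. Next came the receptor gene Eda2r (3.42) with the transgene and the autophagy gene Dram1 (3.30) without it. In ΔS6:c-Myc relative to Alb-c-Myc, 15 of 33 members were at least 2-fold higher and 2 were at least 2-fold lower, where 1.99% of all genes were higher and 1.36% lower. The median log2 ratio of the members was 0.90, and that of all genes -0.01. In ΔS6 relative to WT, 15 members passed 2-fold upwards and 1 downwards, where 7.24% of all genes were higher and 2.54% lower, and the median was 0.61 for the members and -0.05 for all genes. Against Alb-c-Myc instead of WT, 13 members passed 2-fold upwards in ΔS6 and 1 downwards, where 7% of all genes were higher and 2.23% lower, with a median of 0.55 for the members and -0.06 for all genes.

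Of the members, 14 were at least 2-fold higher in both comparisons, which is 93.3% of the 15 in each. Over all genes, 239 were higher in both, which is 66.0% of the 362 higher in ΔS6:c-Myc relative to Alb-c-Myc and 18.1% of the 1318 higher in ΔS6 relative to WT. The other two members were Sesn2, past 2-fold only in ΔS6:c-Myc relative to Alb-c-Myc, and Ckap2, past it only in ΔS6 relative to WT. These comparisons share no array. Across the 33 members the log2 ratios of both had a Pearson r of 0.87 and a Spearman rho of 0.83, against 0.61 and 0.59 across all 18194 genes. Genes are not independent replicates, and the members share the same 4 arrays.

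**Figure D1:**
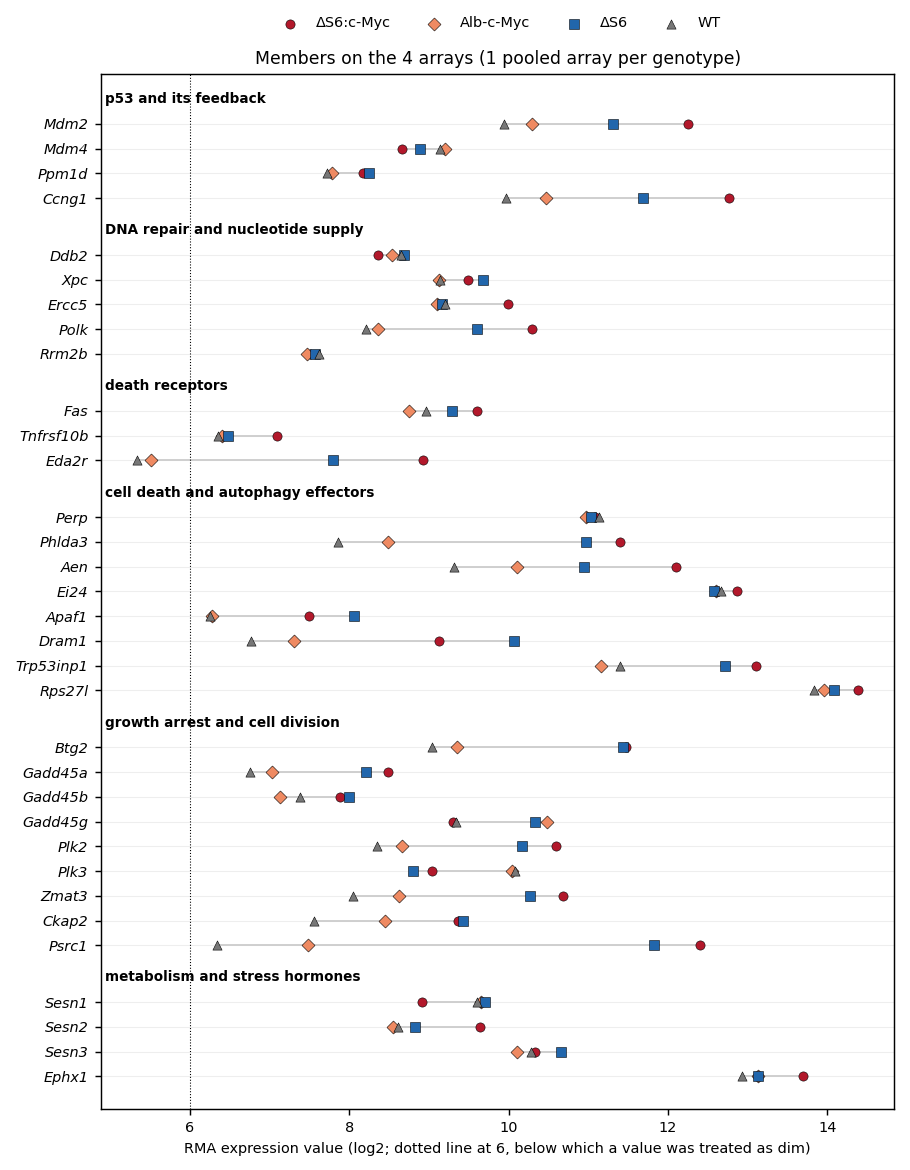
RMA expression values (log2, horizontal axis) of the 33 measured members by role, with 1 point per genotype and 1 array of pooled liver RNA each. Psrc1 lies at 12.40 in ΔS6:c-Myc, 7.49 in Alb-c-Myc, 11.82 in ΔS6 and 6.33 in WT, while Perp and Rrm2b lie nearly on 1 point.

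Of the members that hold p53 in check, Mdm2 and Ccng1 passed 2-fold and Mdm4 and Ppm1d did not. Mdm2 encodes the ubiquitin ligase that marks p53 for degradation, and its values were 12.25 in ΔS6:c-Myc and 10.30 in Alb-c-Myc liver, and 11.31 in ΔS6 and 9.95 in WT liver. Both Rps6-deficient arrays were above both others, with log2 ratios of 1.95 with the transgene and 1.37 without it. Ccng1, which encodes cyclin G1, a partner of the phosphatase PP2A that acts on Mdm2, had 12.76 in ΔS6:c-Myc and 10.46 in Alb-c-Myc, and 11.69 in ΔS6 and 9.97 in WT. Its order over the arrays was that of Mdm2, and its ratios were 2.30 and 1.72. The remaining probe sets of Ccng1 gave 1.83 and 2.23 with the transgene and 1.32 and 1.53 without it. A further probe set of Mdm2 gave 2.37 and 1.61, and the last of the 3 was below 6, the level under which a value was treated as dim, on every array.

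Mdm4, the Mdm2 relative that blocks the activation domain of p53, had 8.66 in ΔS6:c-Myc and 9.20 in Alb-c-Myc, and 8.89 in ΔS6 and 9.14 in WT. It was lowest on the Rps6-deficient arrays, by a log2 ratio of -0.54 with the transgene and -0.25 without it, and its other 3 probe sets had ratios between -0.25 and -0.07. Ppm1d, the gene of the phosphatase Wip1 that reverses p53 phosphorylation, had 8.18 in ΔS6:c-Myc and 7.78 in Alb-c-Myc, and 8.25 in ΔS6 and 7.72 in WT. Its ratios of 0.40 and 0.52 were above the tolerance and short of 2-fold. Of 22 measured p53 regulators and cofactors outside the members, 1 was at least 2-fold higher and 0 at least 2-fold lower with the transgene, and 0 were past 2-fold without it. The one was Rchy1, the gene of another ubiquitin ligase for p53, at 1.12 with the transgene and 0.59 without it.

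Among the members for DNA repair and nucleotide supply, only Polk passed 2-fold. Polk encodes DNA polymerase kappa, which copies past damaged bases, and it had 10.29 in ΔS6:c-Myc and 8.36 in Alb-c-Myc, and 9.61 in ΔS6 and 8.21 in WT. Both Rps6-deficient arrays were higher than both others, with log2 ratios of 1.93 and 1.40, and its second probe set gave 1.71 and 0.81. The nucleotide excision repair genes did not follow it. Ddb2, a sensor of ultraviolet damage, had ratios of -0.17 with the transgene and 0.04 without it, and Xpc, which recognizes the distorted helix, had 0.36 and 0.53.

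Ercc5, the gene of the endonuclease XPG that cuts 3′ of a lesion, had 10.00 in ΔS6:c-Myc and 9.10 in Alb-c-Myc, and 9.16 in ΔS6 and 9.20 in WT. It was high on the ΔS6:c-Myc array alone, with ratios of 0.90 and -0.04, and the second probe set of Ercc5 was dim on every array. Rrm2b, which encodes the p53-inducible subunit of ribonucleotide reductase, lay between 7.47 and 7.62 on all arrays. Of 16 other nucleotide excision repair genes measured, 0 were past 2-fold in either comparison, and their medians were 0.17 with the transgene and 0.20 without it. The widest ratios among them were those of Rad23b, an Xpc partner, at 0.79 and 0.59, and of the DNA ligase gene Lig1, at 0.38 and 0.89. Of 7 other translesion polymerase and ribonucleotide reductase genes, 0 passed 2-fold with the transgene and 1 without it. That gene was Rrm2, the S-phase subunit of the reductase, at 0.05 and 1.86.

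The members grouped as death receptors differed from each other. Eda2r, a receptor for ectodysplasin A2, had 8.93 in ΔS6:c-Myc and 5.51 in Alb-c-Myc, and 7.80 in ΔS6 and 5.34 in WT. The levels without the deletion were dim, so that the log2 ratios of 3.42 with the transgene and 2.46 without it are uncertain in size. Fas, the receptor of Fas ligand, had 9.60 in ΔS6:c-Myc and 8.75 in Alb-c-Myc, and 9.29 in ΔS6 and 8.97 in WT. It was higher in both Rps6-deficient livers, by 0.86 and 0.32, without reaching 2-fold. Tnfrsf10b, the receptor of TRAIL, had 7.09 in ΔS6:c-Myc and 6.40 in Alb-c-Myc, and 6.48 in ΔS6 and 6.35 in WT. Only the ΔS6:c-Myc array stood out, with ratios of 0.69 and 0.13, and the second probe set of Tnfrsf10b gave 0.63 and -0.27. Of 8 measured genes of death receptor signalling outside the members, 0 were past 2-fold in either comparison. Cflar, which encodes the caspase-8 inhibitor c-FLIP, had the widest ratios of these, at -0.95 with the transgene and -0.77 without it.

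Of 8 effectors of cell death and autophagy, 5 were at least 2-fold higher in both comparisons. Phlda3, which competes with Akt for membrane lipids, had 11.40 in ΔS6:c-Myc and 8.48 in Alb-c-Myc, and 10.98 in ΔS6 and 7.86 in WT. The Rps6-deficient arrays were far above the other two, with log2 ratios of 2.92 (7.55-fold) and 3.11 (8.65-fold). Aen, the gene of an apoptosis-enhancing nuclease, had 12.10 in ΔS6:c-Myc and 10.10 in Alb-c-Myc, and 10.94 in ΔS6 and 9.31 in WT. Aen was highest with both alterations, with ratios of 2.00 and 1.63, and against Alb-c-Myc instead of WT the second ratio was 0.84, short of 2-fold. Its other 3 probe sets ran from 0.42 to 2.14 with the transgene and from 0.17 to 2.05 without it.

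Trp53inp1, whose product promotes p53 phosphorylation and autophagy, had 13.10 in ΔS6:c-Myc and 11.15 in Alb-c-Myc, and 12.71 in ΔS6 and 11.40 in WT. Both Rps6-deficient arrays were high, with log2 ratios of 1.94 and 1.31, and the second probe set of Trp53inp1 gave 1.28 and 0.73, short of 2-fold without the transgene. Apaf1, the scaffold of the apoptosome that activates caspase-9, had 7.49 in ΔS6:c-Myc and 6.27 in Alb-c-Myc, and 8.06 in ΔS6 and 6.26 in WT. Its ratios were 1.22 and 1.80, and the second probe set of Apaf1, at 1.29 and 0.90, put the larger ratio on the other comparison. The 4 measured partners of Apaf1 were within 2-fold in both comparisons. The widest ratios of these were those of the caspase inhibitor gene Xiap, at -0.38 and -0.39, followed by Casp9 (-0.16 and -0.22), Diablo (0.20 and 0.08) and Cycs, the cytochrome c gene (0.12 and 0.06).

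Dram1, the gene of a lysosomal membrane protein that promotes autophagy, was one of the 2 members whose deletion effects lay at least 2-fold apart. Over all genes, the effect with the transgene was at least 2-fold above that without it in 1.14% and below it in 4.61%. Dram1 had 9.13 in ΔS6:c-Myc and 7.30 in Alb-c-Myc, and 10.06 in ΔS6 and 6.76 in WT. The ΔS6 array was the highest, and the ratios were 1.83 with the transgene and 3.30 without it. The difference of these ratios, -1.47, was wider than the tolerance of 0.22 for such differences. It rests on 1 probe set and on the WT array, and in ΔS6 relative to Alb-c-Myc the ratio was 2.76. The difference has no replicate check. Markers of other cells moved with it, since 9 of 10 macrophage and Kupffer cell markers passed 2-fold upwards in ΔS6 relative to WT, against 2 of 10 in ΔS6:c-Myc relative to Alb-c-Myc. Their summed intensities were 14743 in ΔS6:c-Myc, 8733 in Alb-c-Myc, 43995 in ΔS6 and 9998 in WT, none of them was dim on any array, and their part in the value of Dram1 was not tested.

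The remaining effectors were within 2-fold in both comparisons. Perp, whose product is a desmosomal membrane protein linked to apoptosis, lay between 10.97 and 11.13 on all arrays. Ei24, which encodes a membrane protein of the endoplasmic reticulum, had log2 ratios of 0.26 with the transgene and -0.08 without it. Rps27l, a ribosomal protein paralog that binds Mdm2, was high on every array, at 14.39 in ΔS6:c-Myc and 13.96 in Alb-c-Myc, and 14.08 in ΔS6 and 13.83 in WT, and its ratios were 0.42 and 0.26. The x_at probe sets of Rps27l, whose probes can match related transcripts, gave 0.48 and 0.45 with the transgene and 0.26 and 0.22 without it.

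**Figure D2:**
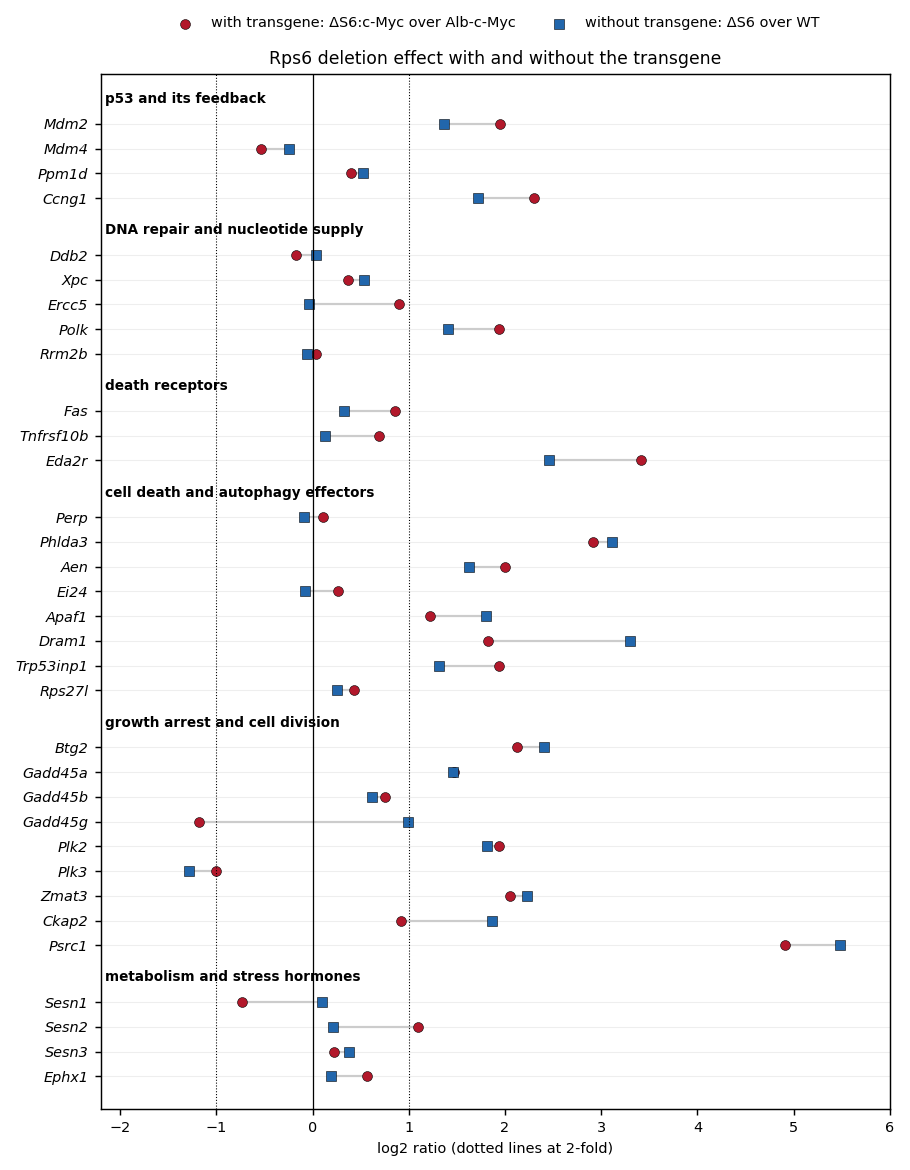
Log2 ratio of Rps6-deficient over Rps6-intact liver (horizontal axis) for each member by role, in ΔS6:c-Myc relative to Alb-c-Myc (circles) and ΔS6 relative to WT (squares), with 1 array per genotype and no replicate. Psrc1 has 4.91 and 5.49, and Gadd45g lies on opposite sides of 0, at -1.18 and 0.99.

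The members of growth arrest and cell division held the widest ratios of the list. Psrc1 encodes a microtubule-binding protein of the mitotic spindle, and it had 12.40 in ΔS6:c-Myc and 7.49 in Alb-c-Myc, and 11.82 in ΔS6 and 6.33 in WT. Its Rps6-deficient levels were far above the others, with log2 ratios of 4.91 (30.1-fold) and 5.49 (44.9-fold), which ranked 2 and 10 of 18194 genes. A second probe set of Psrc1 gave 3.06 and 3.07, and the last of its 3 was dim on all arrays, with 0.22 and 0.06. Against Alb-c-Myc instead of WT the second ratio was 4.34.

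Btg2, an antiproliferative gene, had 11.47 in ΔS6:c-Myc and 9.35 in Alb-c-Myc, and 11.44 in ΔS6 and 9.04 in WT. The Rps6-deficient arrays were nearly equal and above the other two, with log2 ratios of 2.13 and 2.40, and the second probe set of Btg2 gave 1.87 and 2.28. Zmat3, a zinc finger gene whose product binds RNA, had 10.68 in ΔS6:c-Myc and 8.62 in Alb-c-Myc, and 10.27 in ΔS6 and 8.04 in WT. It showed the same order of arrays as Phlda3, with ratios of 2.06 and 2.23.

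The polo-like kinase members went in opposite directions. Plk2, a kinase of centriole duplication, had 10.60 in ΔS6:c-Myc and 8.66 in Alb-c-Myc, and 10.16 in ΔS6 and 8.35 in WT. Plk3, a stress-responsive kinase, had 9.04 in ΔS6:c-Myc and 10.04 in Alb-c-Myc, and 8.80 in ΔS6 and 10.08 in WT. So Plk2 was high and Plk3 low on both Rps6-deficient arrays, with log2 ratios of 1.93 and 1.81 for Plk2, and with Plk3 at 0.499 and 0.411 times its Rps6-intact levels. Plk3 was the one member at least 2-fold lower in both comparisons, and with each array centred on its median it fell short of 2-fold in ΔS6:c-Myc relative to Alb-c-Myc. Of 10 paralogs of members outside the list, with the transgene 0 passed 2-fold upwards and 1 downwards, and without it 1 upwards and 2 downwards. The widest ratio among these was that of Phlda1, a paralog of Phlda3, which had 11.91 in ΔS6:c-Myc and 12.71 in Alb-c-Myc, and 10.78 in ΔS6 and 13.05 in WT. It was low on both Rps6-deficient arrays, at -0.80 and -2.27, where Phlda3 was high. Ephx2, described with Ephx1, was past 2-fold downwards in both comparisons. Plk1, the kinase of mitotic entry, had 0.34 and 1.36, and Plk4 had 0.23 and 0.82.

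The 3 Gadd45 genes, which encode related activators of stress kinase signalling, also differed. Gadd45a, named for its induction by growth arrest and DNA damage, had 8.49 in ΔS6:c-Myc and 7.02 in Alb-c-Myc, and 8.21 in ΔS6 and 6.75 in WT. Both log2 ratios of Gadd45a were close to each other, at 1.47 and 1.46. Gadd45b had ratios of 0.75 and 0.61, short of 2-fold, and its other probe sets ranged from 0.04 to 0.90 over both comparisons. Gadd45g had 9.30 in ΔS6:c-Myc and 10.48 in Alb-c-Myc, and 10.33 in ΔS6 and 9.34 in WT. It was high on the arrays with 1 alteration and low on those with both or neither, with ratios of -1.18 and 0.99. The difference of -2.17 was the widest among the members, rests on 1 probe set and was not tested. Against Alb-c-Myc instead of WT the ratio of ΔS6 was -0.15.

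Ckap2, the gene of a cytoskeleton-associated protein of the mitotic spindle, had 9.37 in ΔS6:c-Myc and 8.45 in Alb-c-Myc, and 9.42 in ΔS6 and 7.56 in WT. The WT array was the lowest, with log2 ratios of 0.92 and 1.86, and against Alb-c-Myc instead of WT the second was 0.97. Mitosis markers also differed between the ΔS6 and WT arrays. Of 9 measured, 0 were past 2-fold in ΔS6:c-Myc relative to Alb-c-Myc and 8 were at least 2-fold higher in ΔS6 relative to WT, with summed intensities of 2400 in ΔS6:c-Myc, 2504 in Alb-c-Myc, 4580 in ΔS6 and 1020 in WT. Aurkb and Bub1 were the markers that were dim in WT, at 5.65 and 5.25, and Bub1 was dim in Alb-c-Myc too, at 5.73. The part of dividing cells in the ratios of Ckap2 and Psrc1 was not tested.

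The metabolic members were mostly short of 2-fold, and the sestrins, which restrain mTORC1 through the GATOR complexes, did not move together. Sesn1 had 8.91 in ΔS6:c-Myc and 9.65 in Alb-c-Myc, and 9.70 in ΔS6 and 9.60 in WT. It was low on the ΔS6:c-Myc array alone, with log2 ratios of -0.74 and 0.10, and the 2 further probe sets of Sesn1 that were not dim gave -0.72 and -0.56 with the transgene. Sesn2 had 9.65 in ΔS6:c-Myc and 8.55 in Alb-c-Myc, and 8.82 in ΔS6 and 8.61 in WT. It was high on that same array, with ratios of 1.10 and 0.21, and its second probe set gave 1.18 and 0.53.

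Sesn3 had log2 ratios of 0.22 and 0.37 by the brighter of its probe sets. Its other probe set had 8.90 in ΔS6:c-Myc and 7.57 in Alb-c-Myc, and 8.74 in ΔS6 and 7.62 in WT, which gave 1.33 and 1.12. The Sesn3 probe sets therefore disagreed on whether the gene passed 2-fold in either comparison. Ephx1, the microsomal epoxide hydrolase, had 13.70 in ΔS6:c-Myc and 13.13 in Alb-c-Myc, and 13.12 in ΔS6 and 12.93 in WT, with ratios of 0.57 and 0.19. Its paralog Ephx2 was at least 2-fold lower in both comparisons, at -1.18 and -1.26. Of 8 GATOR genes, 0 were past 2-fold in either comparison, and their medians were 0.23 and 0.07.

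**Figure D3:**
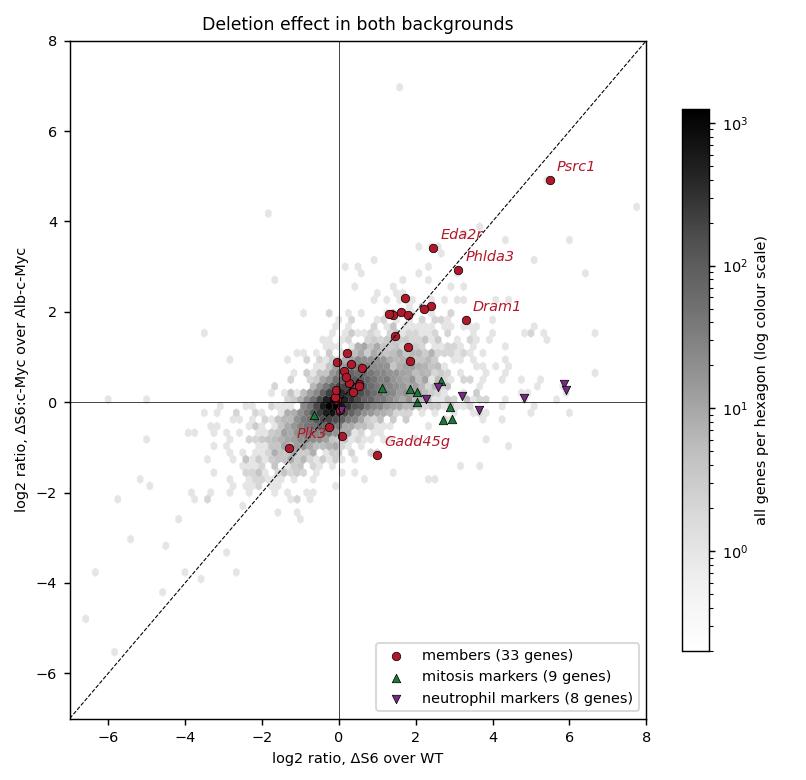
Log2 ratio in ΔS6 relative to WT (horizontal axis) and in ΔS6:c-Myc relative to Alb-c-Myc (vertical axis) for all 18194 genes (grey hexagons, log colour scale), with the 33 members as red circles, 9 mitosis markers as green triangles and 8 neutrophil markers as purple triangles. The dashed diagonal marks equal ratios, Psrc1 lies near it at 5.49 and 4.91, and 0 of the mitosis and neutrophil markers are past 2-fold on the vertical axis.

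Fewer members passed 2-fold between arrays with and without the transgene than in the deletion effects. In ΔS6:c-Myc relative to ΔS6, 3 members (9.09%) passed 2-fold upwards and 1 (3.03%) downwards, where 0.769% of all genes were higher and 4.29% lower. Those higher were Aen (1.16), Eda2r (1.13) and Ccng1 (1.08), and the lower one was Gadd45g (-1.03). The further probe sets of Aen (0.39 to 0.97) and of Ccng1 (0.74 and 0.96) fell short of 2-fold, and Eda2r and Gadd45g had none. In Alb-c-Myc relative to WT, 2 members (6.06%) passed 2-fold upwards and 0 downwards, where 0.418% of all genes were higher and 0.335% lower. These were Psrc1 (1.15) and Gadd45g (1.14). A second probe set of Psrc1 gave 0.59, and these ratios rest on the WT array, which stood apart. The median was 0.29 for the members over ΔS6 and 0.06 over WT, where that of all genes was 0.05 and 0.00. These transgene ratios share their arrays with the deletion effects and are given as values beside them only.

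In the deletion effect with minus without the transgene, 0 members were at least 2-fold higher and 2 were lower, where 1.14% of all genes were higher and 4.61% lower. The members' median difference was 0.12, and the lower ones were Gadd45g and Dram1. Next to them were Ckap2 (-0.95) and Sesn1 (-0.83) on one side, and Eda2r (0.96), Ercc5 (0.93) and Sesn2 (0.88) on the other. For these 5 genes the difference exceeded the tolerance of 0.22 but was under 2-fold. That tolerance comes from probe sets with a mean of at least 8, and it may not hold for Eda2r, which was dim in Alb-c-Myc and WT. The transgene and the extent of Rps6 deletion cannot be told apart in these differences. They also use the WT array, which stood apart. In ΔS6 relative to Alb-c-Myc the log2 ratios were 0.97 for Ckap2, 0.05 for Sesn1, 2.28 for Eda2r, 0.06 for Ercc5 and 0.27 for Sesn2. Beside these, the ratios with the transgene were 0.92, -0.74, 3.42, 0.90 and 1.10, in that order.

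Other p53 targets, outside the members, gave a mixed picture. Of 18 measured, 4 were at least 2-fold higher in ΔS6:c-Myc relative to Alb-c-Myc and 6 in ΔS6 relative to WT, with 0 lower in either and medians of 0.32 and 0.24. The cell cycle inhibitor gene Cdkn1a had log2 ratios of 3.80 and 3.68. Pmaip1, the gene of the death protein Noxa, had 5.88 in ΔS6:c-Myc and 4.86 in Alb-c-Myc, and 9.47 in ΔS6 and 5.14 in WT, so that only the ΔS6 array was above the dim level. Its ratio with the transgene, 1.02, is counted among the 4 and rests on dim values alone. Thbs1, the matrix protein thrombospondin, had ratios of 0.41 and 2.78, and the immediate early gene Ier5 had 1.40 and 2.33. Thbs1 was dim in Alb-c-Myc (5.92) and WT (5.72), so that its ratios are uncertain in size. Of 8 p53 targets of metabolism, 0 were at least 2-fold higher and 1 at least 2-fold lower with the transgene, and 0 were higher and 3 lower without it. The phosphatidate phosphatase gene Lpin1 had -1.62 and -2.09, and the pantothenate kinase gene Pank1 had -0.40 and -1.36.

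Sesn2 also answers to Atf4, the transcription factor of the integrated stress response. Of 10 Atf4 targets, 3 were at least 2-fold higher and 2 at least 2-fold lower with the transgene, and 5 were higher and 1 lower without it. The death-promoting factor gene Ddit3 had log2 ratios of 3.51 and 2.06, and Atf3 had 2.79 and 2.09. Chac1, a glutathione-degrading enzyme, had -2.46 and -1.61, and the serine synthesis gene Psat1 had -0.79 and 3.90. Psat1 was dim in WT, at 5.74, and had 1.55 in ΔS6 relative to Alb-c-Myc. The part of Atf4 in the members' values was not tested.

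Markers of several cell types were higher on the ΔS6 array than on the other 3. Of 8 neutrophil markers, 0 were past 2-fold in ΔS6:c-Myc relative to Alb-c-Myc and 7 were at least 2-fold higher in ΔS6 relative to WT, with summed intensities of 881 in ΔS6:c-Myc, 799 in Alb-c-Myc, 25014 in ΔS6 and 880 in WT. Pglyrp1 was dim on all arrays but that of ΔS6, at 5.46 in ΔS6:c-Myc, 5.36 in Alb-c-Myc and 5.25 in WT. Of 7 bile duct and progenitor markers, 2 were at least 2-fold higher with the transgene and 7 without it, with sums of 2051 in ΔS6:c-Myc, 808 in Alb-c-Myc, 22480 in ΔS6 and 837 in WT, and Prom1 was dim in Alb-c-Myc alone, at 5.84. Of 10 stellate and endothelial markers, 0 were higher and 1 lower with the transgene and 5 were higher without it. Their sums were 10333 in ΔS6:c-Myc, 10121 in Alb-c-Myc, 23880 in ΔS6 and 8883 in WT. The 5 were the stellate markers Col1a1, Col1a2, Col3a1, Acta2 and Pdgfrb. The stellate marker Des and the endothelial markers Pecam1, Kdr, Stab2 and Lyve1 were within 2-fold without the transgene, and Lyve1 was the one lower with it. Of 7 B and T lymphocyte markers, 0 were past 2-fold in either comparison. The part of these cells in the members' ratios of ΔS6 relative to WT was not tested.

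**Figure D4:**
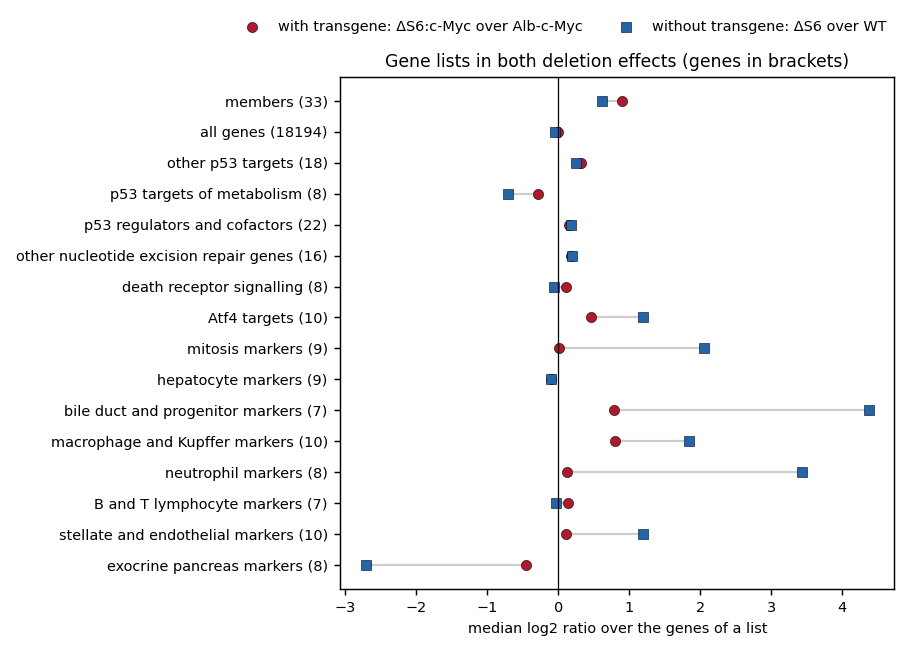
Median log2 ratio (horizontal axis) over the genes of each list in ΔS6:c-Myc relative to Alb-c-Myc (circles) and ΔS6 relative to WT (squares), with the number of measured genes in brackets and no replicates. The members have 0.90 and 0.61, and the bile duct and progenitor markers 0.79 and 4.38.

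Because the WT array stood apart, the members past 2-fold in ΔS6 relative to WT were also read against Alb-c-Myc. In ΔS6 relative to Alb-c-Myc the log2 ratios were 4.34 for Psrc1, 2.76 for Dram1, 2.50 for Phlda3, 2.28 for Eda2r and 2.09 for Btg2. They were 1.78 for Apaf1, 1.65 for Zmat3, 1.55 for Trp53inp1, 1.25 for Polk, 1.22 for Ccng1, 1.19 for Gadd45a and 1.01 for Mdm2, so that Mdm2 lay close to the threshold. Plk2 was 2.83-fold higher in ΔS6 relative to Alb-c-Myc. Ckap2 (0.97) and Aen (0.84) fell short of 2-fold, and Plk3 had -1.24. Among these members Trp53inp1 alone had a wider ratio against Alb-c-Myc than against WT. Cdkn1a had 2.87 in ΔS6 relative to Alb-c-Myc. Of the lists outside the members, 4 of 9 mitosis markers, 5 of 18 other p53 targets and 4 of 10 Atf4 targets passed 2-fold upwards against Alb-c-Myc, compared with 8, 6 and 5 against WT. Rrm2 had 0.77 there, short of 2-fold. The counts of bile duct, macrophage, neutrophil and stellate and endothelial markers past 2-fold were the same against either array, at 7 of 7, 9 of 10, 7 of 8 and 5 of 10. Of the 8 exocrine pancreas genes, 1 was at least 2-fold lower in ΔS6 relative to Alb-c-Myc.

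How far the members rested on the chosen probe set was read from their other probe sets. Of the 15 members at least 2-fold higher in ΔS6:c-Myc relative to Alb-c-Myc, 10 had further probe sets, 15 in all, and 12 of these were not dim on every array. Of the 12, 11 were at least 2-fold higher and 12 were above 0. Of the 15 members higher in ΔS6 relative to WT, 9 had 14 further probe sets, and 6 of the 11 that were not dim were at least 2-fold higher and 11 above 0. Eda2r, Phlda3, Dram1, Gadd45a, Gadd45g, Zmat3, Plk3 and Ckap2 had a single probe set and no such check.

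**Figure D5:**
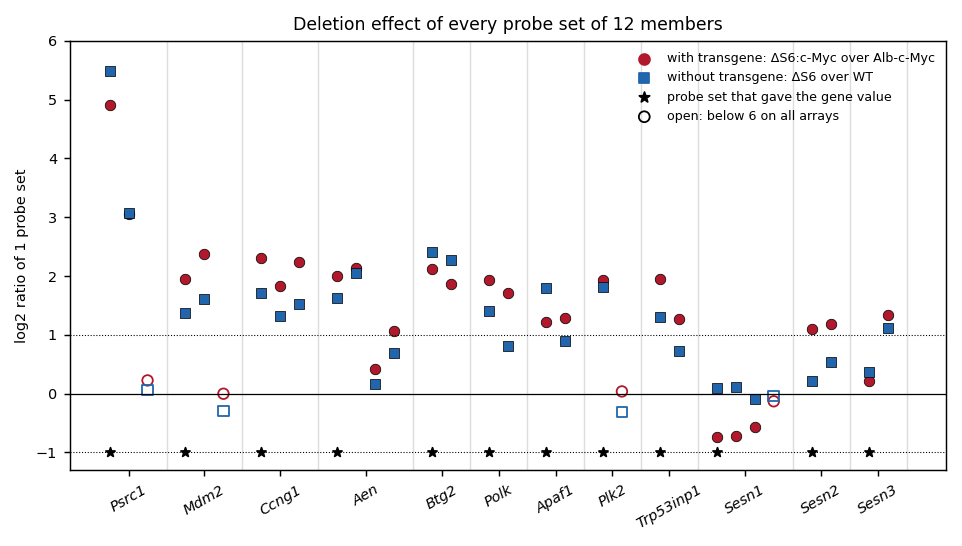
Log2 ratio (vertical axis) of every single-symbol probe set of 12 members, in ΔS6:c-Myc relative to Alb-c-Myc (circles) and ΔS6 relative to WT (squares); stars mark the probe set that gave the gene value and open symbols those below 6 on all arrays. The Psrc1 probe sets range from 0.22 to 4.91 with the transgene and from 0.06 to 5.49 without it.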

How the data were processed

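Total liver RNA of 3 mice per genotype was pooled and hybridized to 1 array per genotype. The authors made the deposited log2 values by RMA followed by quantile normalization. RMA and affy are the tools in the submitters' processing notes, with no version in the sources used here. The file holds 45101 probe sets, of which 34958 have 1 gene symbol in the platform annotation, 932 several and 9211 none. A gene took the brightest single-symbol probe set on average over the 4 arrays, and all 33 measured member symbols are those of RefSeq GRCm38.p6. Log2 ratios of 2 arrays were computed and counted past 2-fold, beside the same count over all 18194 genes. Values below 6 were treated as dim. The tolerance is the SD between probe sets of 1 gene over 3379 genes and 8477 probe sets with a mean of at least 8. Arrays with no replicate limit the precision, and no test was run. Quantile normalization makes the arrays' distributions alike, so a shift of most genes in 1 direction would not be seen.

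All 36 members are named by rule. Other lists are given as counts, with values for up to 4 genes from among the 4 with the widest ratios and a value of at least 6 on an array, and markers named for dimness or Xist were chosen after their values were seen. Members and lists were chosen with earlier results of these data known. The counting steps were tested on simulated data. Alternatives were other probe set rules, median-centring, renewed quantile normalization, loess, a filter on dim probe sets, thresholds of 1.5-fold and 4-fold and Alb-c-Myc in place of WT. Promoters come from RefSeq, and a planned comparison of protein sequences was not run here. Tables were handled with pandas 2.3.3 and numpy 2.4.6 in Python 3.11.15, loess came from statsmodels 0.14.6, correlations from scipy 1.17.1 and plots from matplotlib 3.10.9.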

Additional observations from a re-analysis of the deposited data

Results flagged for a closer look

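Gadd45g, a stress kinase activator, differed in direction between the settings: its log2 ratio was -1.18 in ΔS6:c-Myc relative to Alb-c-Myc and 0.99 in ΔS6 relative to WT. With 1 array per genotype this difference was not tested. It rests on 1 probe set and on the WT array, and against Alb-c-Myc instead of WT the ratio of ΔS6 was -0.15.

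A probe set of Sesn3 that did not give the gene value in the report was at least 2-fold higher in both comparisons, at 1.33 in ΔS6:c-Myc relative to Alb-c-Myc and 1.12 in ΔS6 relative to WT, against 0.22 and 0.37 for the probe set that did.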

How the results depend on the processing

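Shares in brackets are those of all genes. At a threshold of 4-fold, 7 members were higher (0.286%) and 0 lower (0.154%) in ΔS6:c-Myc relative to Alb-c-Myc, 6 were higher (1.98%) and 0 lower (0.544%) in ΔS6 relative to WT, 0 were higher (0.115%) and 0 lower (0.841%) in ΔS6:c-Myc relative to ΔS6, 0 were higher (0.0440%) in Alb-c-Myc relative to WT, and 1 was lower (1.00%) in the deletion effect with minus without the transgene. At 1.5-fold, 8 were higher (4.00%) and 3 lower (9.35%) in ΔS6:c-Myc relative to ΔS6, 5 were higher (1.59%) in Alb-c-Myc relative to WT, and 5 were higher (4.62%) and 4 lower (9.84%) in the difference of deletion effects. Centring each array on its median left 1 member lower in ΔS6:c-Myc relative to Alb-c-Myc. The mean of all probe sets left 1 member higher in ΔS6:c-Myc relative to ΔS6 and 1 in Alb-c-Myc relative to WT, and renewed quantile normalization gave 3 members higher in the difference of deletion effects. Other counts stayed within 1.5 times their value, and no ratio past 2-fold changed sign. Against Alb-c-Myc instead of WT, Gadd45g in ΔS6 had -0.15 in place of 0.99. Of 726 values of single members under the alternatives, 665 moved by less than the tolerance and 61 by more, among them Plk2, for which the mean of its probe sets was 0.99 with the transgene and 0.75 without it, and Mdm2, for which that mean was 0.89 without it. No paired analysis was possible because each genotype has 1 array, and for the same reason no replicate could be left out. Values below 6 were not shown to be above background.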
